A study of Mus musculus with 12 samples.

Results

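Glycolysis splits glucose into pyruvate and, through lactate dehydrogenase, lactate. The pentose phosphate pathway branches from its first intermediate and yields NADPH and ribose phosphate, and the tricarboxylic acid (TCA) cycle oxidises acetyl-CoA made from pyruvate by the pyruvate dehydrogenase complex. Activated cytotoxic T lymphocytes (CTL) are known for high rates of aerobic glycolysis, and PI3K signalling restrains the transcription factor FOXO1 by way of the kinase AKT. The mRNA of 43 enzymes of these pathways, out of 13283 genes with deposited values, were examined here: 17 of glycolysis, 7 of the pentose phosphate pathway, and 19 of the TCA group, in which the subunits of pyruvate dehydrogenase were counted. The members were chosen by gene symbol, and each of the 43 symbols had exactly 1 row. Aco1, Idh1 and Mdh1 of the TCA group encode cytosolic enzymes.

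The cells were mouse CD8 T cells activated for 48 h, expanded with IL-12 at 2 ng/mL and with IL-2 at 20 ng/mL, and sorted for CD8. WT CTL had the genotype GzmB cre+. FOXO1-GFP KO CTL had the genotype FOXO1-GFP fl/fl GzmB cre+ and were also sorted as GFP negative, so both genotypes carried the Cre recombinase driven by the granzyme B promoter and deletion occurred only after that promoter became active. The mice were adult females. Each genotype received DMSO or IC87114 at 10 µM for 24 h, which inhibits p110δ, a catalytic subunit of PI3K (PI3Kdi), giving 4 groups of 3 libraries called biological replicates in the labels. Values are FPKM, fragments scaled to exon length and library size, so levels can be compared between genes as well as between libraries.

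The libraries held between 12.8 M and 47.9 M reads, recovered from the spacing of low values. The lowest estimate for a member in any library was 29 reads for Ldhb and 82 for Idh1, and all other members had at least 157. Foxo1 mRNA was 0.58 to 1.75 FPKM in the 6 FOXO1-GFP KO libraries and 5.77 to 10.46 in the 6 WT libraries. The 6 CD8 T cell markers summed to 8284 to 12143 FPKM over the libraries. The 4 B cell markers that could be measured summed to 13.7 to 20.7 FPKM in WT libraries and 5.75 to 8.49 in FOXO1-GFP KO libraries, with no row for the defining markers Cd79a and Ms4a1. The 2 CD4 T cell markers with a row summed to at most 1.79 FPKM and the 3 myeloid markers to at most 27.0. Whether these few other cells had a part in the differences between genotypes was not tested. Between bulk samples, fewer cells of a type and less RNA per cell cannot be told apart.

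CTL devoted far more mRNA to glycolysis than to the other pathways. Glycolytic mRNA summed to 4859 ± 357 FPKM (SD, n = 3) in WT, against 278 ± 22.3 for the pentose phosphate pathway and 625 ± 31.2 for the TCA group. All members together made up 1.15 to 1.83% of a library's FPKM. Aldoa (aldolase A) was the most abundant member, at 977, 1237 and 1180 FPKM in the WT libraries (812, 1147 and 1105 with PI3Kdi) and 997, 950 and 1107 in the FOXO1-GFP KO libraries (928, 966 and 994 with PI3Kdi). Ldha (lactate dehydrogenase A, which makes lactate from pyruvate) came after Gapdh in the mean over all 12 libraries, 685 against 708 FPKM, but was above it in the means of both WT groups. The ratio of Ldha to Ldhb ranged from 343 to 732, and Ldhb, at 1.1 to 1.94 FPKM, was the least abundant member of any pathway.

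Of the pentose phosphate mRNA, Taldo1 (transaldolase of the non-oxidative branch) had the highest mean over the 12 libraries, although Tkt (transketolase) was above it in 5 of them. Taldo1 was at 73.0, 88.8 and 99.4 FPKM in the WT libraries (72.0, 90.4 and 96.3 with PI3Kdi) and 85.4, 86.6 and 107 in the FOXO1-GFP KO libraries (92.3, 92.0 and 94.2 with PI3Kdi). Rpe (ribulose-5-phosphate epimerase) had the lowest mean over the 12 libraries, although Pgls was lower in some of them, and was at 22.4, 18.04 and 17.8 FPKM in the WT libraries (19.6, 16.1 and 13.97 with PI3Kdi) and 17.9, 19.6 and 16.9 in the FOXO1-GFP KO libraries (16.8, 16.1 and 14.7 with PI3Kdi). The libraries of the 4 groups overlapped for Taldo1. In the TCA group, Mdh2 (mitochondrial malate dehydrogenase) was highest, at 103, 129 and 134 FPKM in the WT libraries (96.6, 121 and 125 with PI3Kdi) and 129, 127 and 139 in the FOXO1-GFP KO libraries (129, 129 and 122 with PI3Kdi). Idh1 was lowest, and its values are given with the genotype comparison.

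The first question was which of these mRNA depended on FOXO1. The glycolytic mRNA Pfkl and Tpi1 were less abundant in FOXO1-GFP KO CTL than in WT when both were cultured with PI3Kdi, and no member was higher. An mRNA was called changed when it moved by more than 1.5-fold with a p under 0.05 after Benjamini-Hochberg adjustment across the 13283 genes, in a limma fit of 4 group means to log2(FPKM + 0.1). By that rule 2 of 17 glycolytic, 0 of 7 pentose phosphate and 0 of 19 TCA members were lower, where 1.02% of all genes were lower and 1.45% changed in either direction. Without PI3Kdi, limma called 0 of 43 members, where 0.331% of all genes were called, and 7 members had an unadjusted p under 0.05. A fit in which the vehicle and PI3Kdi libraries of a replicate number within a genotype formed a block called 1 member there, Pfkl, where 0.233% of all genes were called. With PI3Kdi that fit again called 2 of 43, Pfkl and Tpi1, where 1.18% of all genes were called.

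Pfkl (chr10:77986947-78010083, minus strand, GRCm38), the liver type of phosphofructokinase, which catalyses the committed step of glycolysis, differed most. It was at 27.95, 27.1 and 21.9 FPKM in the WT libraries (21.8, 25.0 and 19.9 with PI3Kdi) and 14.7, 14.6 and 10.6 in the FOXO1-GFP KO libraries (12.7, 10.98 and 8.31 with PI3Kdi). Every FOXO1-GFP KO library lay below every WT library, with or without the inhibitor. With PI3Kdi the log2 fold change was -1.07 ± 0.18 (SE; limma adjusted p = 0.0113), a level 2.1-fold lower. Without PI3Kdi it was -0.95 ± 0.18, with an adjusted p of 0.0591 in limma without the block and 0.0352 with it. Leaving out WT+PI3Kdi replicate 2 ended the call with PI3Kdi (limma adjusted p = 0.0568), as did leaving out both libraries of WT replicate 2 (0.0972) or of FOXO1-GFP KO replicate 2 (0.0661).

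Tpi1 (chr6:124810586-124814296, minus strand) encodes triosephosphate isomerase, which interconverts the triose phosphates made by aldolase. Its levels were 332, 374 and 307 FPKM in the WT libraries (270, 352 and 296 with PI3Kdi) and 241, 253 and 190 in the FOXO1-GFP KO libraries (199, 200 and 157 with PI3Kdi). The 6 FOXO1-GFP KO libraries again lay below all 6 WT libraries. The log2 fold change was -0.72 ± 0.15 with PI3Kdi (SE; limma adjusted p = 0.0440) and -0.57 ± 0.15 without it (adjusted p = 0.208). The call with PI3Kdi was lost when any 1 library other than FOXO1-GFP KO replicate 3 was left out, with adjusted p from 0.0551 to 0.1745 in limma, and when only the groups compared were fitted (0.122).

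Pgam1 (phosphoglycerate mutase, chr19:41911923-41918660, plus strand) was the only other member with all 6 FOXO1-GFP KO libraries, at 31.4 to 67.5 FPKM, below all 6 WT libraries, at 71.1 to 98.2 FPKM. Its log2 fold change was -0.79 ± 0.21 with PI3Kdi (SE; limma adjusted p = 0.130) and -0.58 ± 0.21 without (adjusted p = 0.519), and it was not called in either. Thus 3 of 17 glycolytic, 0 of 7 pentose phosphate and 0 of 19 TCA members separated the genotypes completely downwards, against 1.77% of all genes, and 0 of 43 upwards, against 0.896%. The libraries with and without PI3Kdi of a replicate number are not independent samples in that count.

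**Figure D1:**
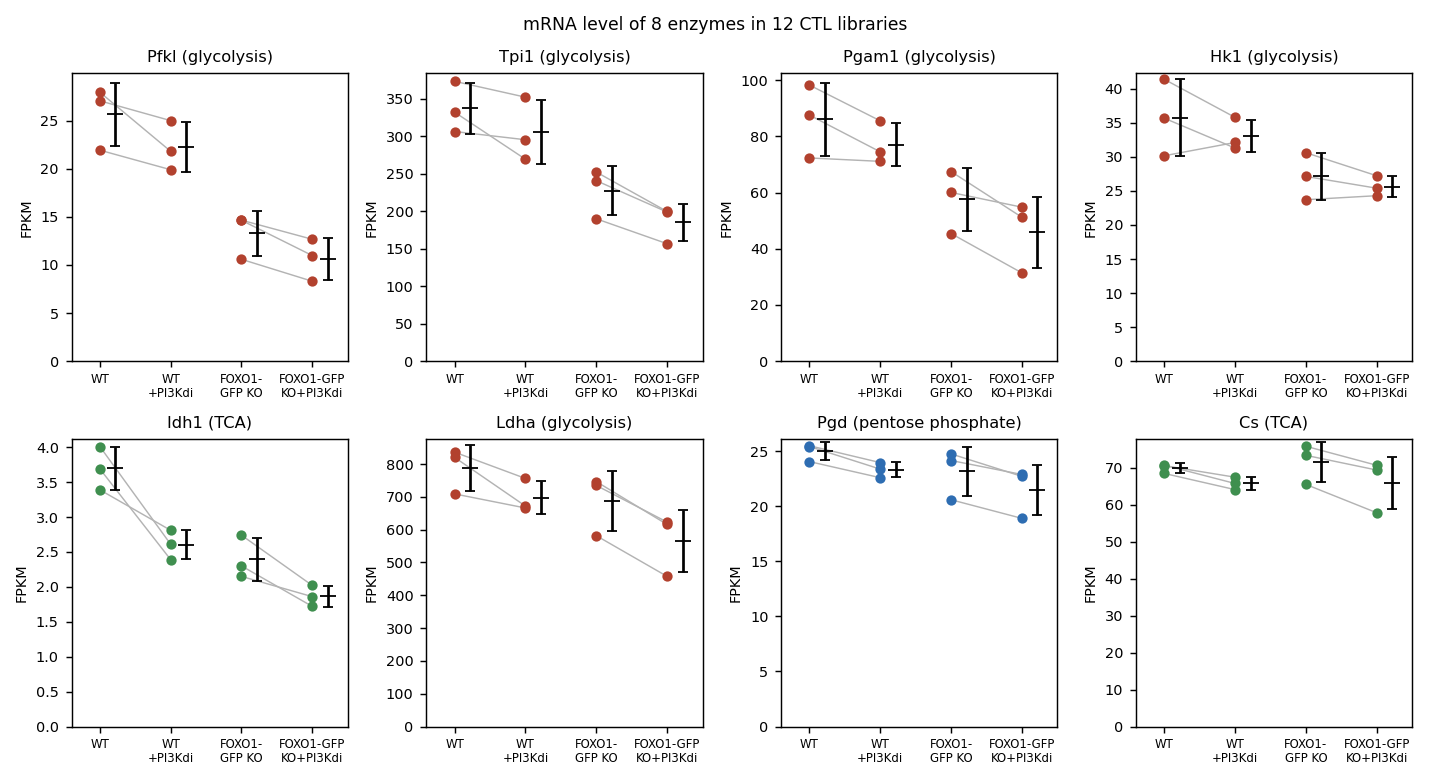
FPKM of 8 enzymes (y axis, from 0) in the 4 groups (x axis), with a point for each of 3 libraries, grey lines joining libraries of the same replicate number within a genotype, and bars for the mean ± SD beside the points. For Pfkl, Tpi1 and Pgam1 the 6 FOXO1-GFP KO points lie below the 6 WT points, while Pgd and Cs overlap between genotypes.

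The isoenzymes of phosphofructokinase did not move in proportion. Pfkp, the platelet type, was the main isoenzyme, at 53.5, 50.8 and 38.6 FPKM in the WT libraries (40.4, 39.9 and 35.2 with PI3Kdi) and 40.1, 41.4 and 31.3 in the FOXO1-GFP KO libraries (36.2, 34.9 and 29.4 with PI3Kdi). Its groups overlapped between genotypes, and its log2 fold changes were -0.34 ± 0.15 without PI3Kdi (SE; limma adjusted p = 0.736) and -0.20 ± 0.15 with it (adjusted p = 0.738). Pfkm, the muscle type, was at 5.68, 5.59 and 4.79 FPKM in the WT libraries (4.51, 5.74 and 4.12 with PI3Kdi) and 4.39, 4.62 and 3.65 in the FOXO1-GFP KO libraries (4.65, 4.06 and 3.68 with PI3Kdi). Pfkl made up 32.1 to 33.6% of phosphofructokinase FPKM in WT and 32.7 to 35.4% in WT+PI3Kdi, but 23.2 to 24.8% in FOXO1-GFP KO and 20.1 to 23.7% in FOXO1-GFP KO+PI3Kdi. As a ratio within a library, that share does not depend on how libraries were scaled, and it shows unequal change, not that Pfkp was constant.

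**Figure D2:**
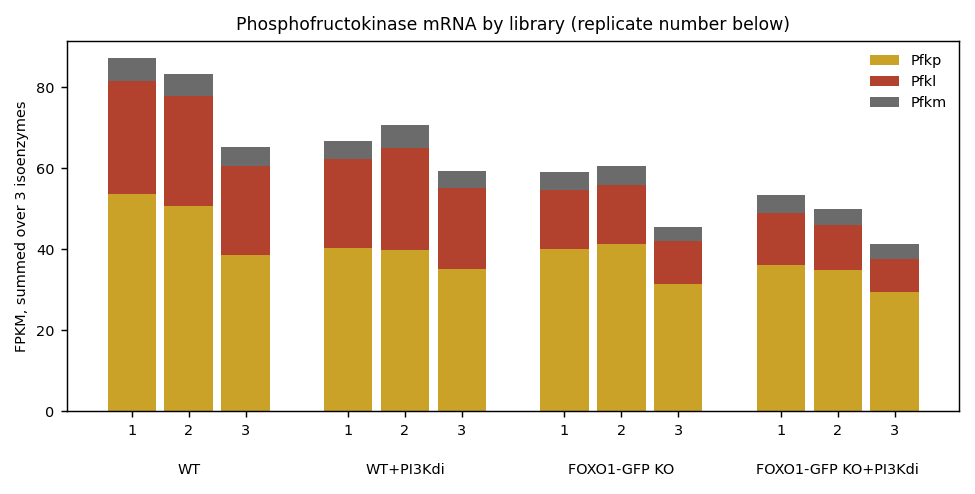
Summed FPKM of the 3 phosphofructokinase isoenzymes (y axis, from 0) in each library, with bars grouped by genotype and treatment, numbered by replicate and coloured by isoenzyme. The Pfkl segment is 20.1 to 24.8% of the bar in FOXO1-GFP KO libraries and 32.1 to 35.4% in WT libraries.

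The promoter windows of the 3 mRNA that separated the genotypes completely are shown because they moved together, from RefSeq on GRCm38.p6, 250 bases before to 50 after the gene start, read 5′ to 3′ on the gene's strand. Capitals mark ACGTG or GCGTG, the core letters of the hypoxia response element, CACGTG, the E-box bound by MYC and other factors, and GTAAACA, a FOXO motif, all searched on both strands. A CACGTG always holds an ACGTG. The Pfkl window lies at chr10:78009758-78010057 on the minus strand, the Tpi1 window at chr6:124814109-124814408 on the minus strand, and the Pgam1 window at chr19:41911621-41911920 on the plus strand.
Pfkl: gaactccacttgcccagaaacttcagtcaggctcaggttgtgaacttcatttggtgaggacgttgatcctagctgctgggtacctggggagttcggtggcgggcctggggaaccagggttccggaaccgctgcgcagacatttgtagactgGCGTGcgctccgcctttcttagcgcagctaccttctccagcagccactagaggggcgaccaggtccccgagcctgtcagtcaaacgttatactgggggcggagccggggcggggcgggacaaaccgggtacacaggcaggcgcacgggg
Tpi1: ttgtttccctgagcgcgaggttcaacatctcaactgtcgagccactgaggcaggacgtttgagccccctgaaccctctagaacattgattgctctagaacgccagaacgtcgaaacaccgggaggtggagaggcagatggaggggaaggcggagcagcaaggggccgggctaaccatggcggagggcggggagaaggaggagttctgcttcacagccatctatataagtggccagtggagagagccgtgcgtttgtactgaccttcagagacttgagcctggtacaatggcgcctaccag
Pgam1: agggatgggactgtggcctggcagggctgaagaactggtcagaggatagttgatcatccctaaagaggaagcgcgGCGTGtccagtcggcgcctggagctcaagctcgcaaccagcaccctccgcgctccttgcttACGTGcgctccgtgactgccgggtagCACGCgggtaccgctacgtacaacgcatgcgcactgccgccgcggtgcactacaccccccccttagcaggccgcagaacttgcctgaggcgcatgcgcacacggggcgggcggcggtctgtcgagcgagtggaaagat
The Pfkl window held 1 GCGTG, the Pgam1 window held 3 core sites and the Tpi1 window held none of these letters. Of the 43 members, 42 had at least 1 window, 60 in all. Either core was found in 22 of 28 glycolytic, 6 of 8 pentose phosphate and 16 of 24 TCA windows, against 43.8% of all 32851 windows. Windows of the same gene can overlap, as for Ogdh and Eno1. By gene, either core was in any window of 15 of 17 glycolytic, 6 of 7 pentose phosphate and 10 of 18 TCA members. The share over all windows is not a share by gene. The median GC content of the windows of the 3 pathways was 58.2%, 60.5% and 61.2%, against 52.7% over all windows, and the cores hold a CG pair. GTAAACA was in 1 member window, that of Aldoc, against 3.65% of all windows. These matches are letters in a window and not sites of binding.

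Other glycolytic members leaned the same way without being called. Of 17, 16 had a negative log2 fold change of FOXO1-GFP KO against WT in each treatment, and the median was -0.22 without and -0.21 with PI3Kdi, against -0.01 and 0.01 over all genes. The share of negative values was 52.7% of all genes without and 49% with PI3Kdi. Both rescalings of the libraries kept 16 of 17 negative. At 3 libraries against 3, the FOXO1-GFP KO libraries were all lower for 5 glycolytic members without PI3Kdi (Gpi1, Pfkl, Pfkm, Pgam1 and Tpi1), against 6.79% of all genes, and for 6 with it (Hk1, Ldha, Pfkl, Pgam1, Pkm and Tpi1), against 7.9%. The exception in sign was Eno3, the muscle enolase, with a log2 fold change of 0.28 ± 0.17 without and 0.49 ± 0.17 with PI3Kdi (SE; limma adjusted p = 0.967 and 0.256). With PI3Kdi all FOXO1-GFP KO libraries were above WT for Eno3, at 8.29 to 9.71 against 5.22 to 6.95 FPKM, as for 6.85% of all genes. Over the 12 libraries Eno3 was at 5.22 to 9.79 FPKM, far below Eno1 at 331 to 509.

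The hexokinases, which trap glucose in the cell, differed in how their values spread. Hk1 was at 41.4, 35.7 and 30.2 FPKM in the WT libraries (35.8, 31.3 and 32.1 with PI3Kdi) and 27.1, 30.6 and 23.7 in the FOXO1-GFP KO libraries (25.4, 27.2 and 24.3 with PI3Kdi). Its log2 fold changes between genotypes were -0.39 ± 0.13 without and -0.36 ± 0.13 with PI3Kdi (SE; limma adjusted p = 0.403 and 0.291). Hk2 was at 26.8, 21.2 and 16.9 FPKM in the WT libraries (27.0, 23.1 and 18.2 with PI3Kdi) and 26.0, 18.2 and 12.1 in the FOXO1-GFP KO libraries (28.2, 18.6 and 10.5 with PI3Kdi). Replicate pairs accounted for most of the Hk2 variation, so that a 95% interval for its genotype difference with PI3Kdi ran from -1.11 to 0.42.

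The last steps of glycolysis showed smaller differences. Pkm (pyruvate kinase) was at 605, 601 and 505 FPKM in the WT libraries (488, 546 and 512 with PI3Kdi) and 545, 541 and 479 in the FOXO1-GFP KO libraries (460, 477 and 399 with PI3Kdi). Ldha was at 820, 836 and 709 FPKM in the WT libraries (672, 756 and 666 with PI3Kdi) and 735, 747 and 582 in the FOXO1-GFP KO libraries (623, 616 and 458 with PI3Kdi). With PI3Kdi the libraries of the genotypes did not overlap for either gene. The Ldha log2 fold change was then -0.32 ± 0.16 (SE; limma adjusted p = 0.563), with a 95% interval from -0.67 to 0.03. Ldhb was at 1.12, 1.39 and 1.72 FPKM in the WT libraries (1.37, 1.46 and 1.94 with PI3Kdi) and 1.1, 1.32 and 1.44 in the FOXO1-GFP KO libraries (1.29, 1.66 and 1.23 with PI3Kdi), with overlap in every comparison.

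The pentose phosphate and TCA mRNA did not show that lean. In limma 0 of 7 pentose phosphate members had an unadjusted p under 0.05 between genotypes, with or without PI3Kdi. Of all 13283 genes, 865 without and 1353 with PI3Kdi had such a p. Median log2 fold changes between genotypes were 0.08 without and 0.00 with PI3Kdi for the pentose phosphate pathway, and 0.02 and 0.03 for the TCA group. Without PI3Kdi, 8 of 19 TCA members had a negative value, which became 13 when libraries were rescaled to the same FPKM sum, and the pentose phosphate count went from 2 to 3 of 7. With PI3Kdi those counts were 8 and 3, and became 12 and 5. A 95% interval lay wholly within a 1.5-fold change either way for 18 of 19 TCA and 6 of 7 pentose phosphate members in each treatment, but for 7 of 17 glycolytic members. Over all genes that share was 52.7% without and 46.4% with PI3Kdi. The intervals are of single genes and were not adjusted. The difference between pathways was not itself tested, and the members of a pathway are not replicates.

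G6pdx and Pgd encode the dehydrogenases of the oxidative branch, which yield NADPH. G6pdx was at 25.0, 26.8 and 25.2 FPKM in the WT libraries (24.3, 25.3 and 22.7 with PI3Kdi) and 28.8, 29.1 and 24.8 in the FOXO1-GFP KO libraries (26.6, 25.7 and 20.8 with PI3Kdi). Pgd was at 25.4, 25.5 and 24.0 FPKM in the WT libraries (23.4, 24.0 and 22.6 with PI3Kdi) and 24.1, 24.7 and 20.6 in the FOXO1-GFP KO libraries (22.9, 22.7 and 18.9 with PI3Kdi). The genotypes overlapped for both, and with PI3Kdi the 95% intervals of the log2 difference were -0.23 to 0.25 for G6pdx and -0.35 to 0.10 for Pgd. Pgls (6-phosphogluconolactonase), at 11.7 to 31.0 FPKM, was the pentose phosphate member whose interval passed 1.5-fold.

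In the TCA group only Idh1, the cytosolic NADP-dependent isocitrate dehydrogenase, had an unadjusted p under 0.05 between genotypes. That p was under 0.05 for 865 of all 13283 genes without and 1353 with PI3Kdi. Idh1 was at 3.69, 4.01 and 3.39 FPKM in the WT libraries (2.39, 2.61 and 2.81 with PI3Kdi) and 2.15, 2.74 and 2.30 in the FOXO1-GFP KO libraries (1.86, 2.02 and 1.72 with PI3Kdi). The groups did not overlap between genotypes within a treatment, and untreated FOXO1-GFP KO overlapped WT+PI3Kdi. The log2 fold change was -0.61 ± 0.14 without (SE; limma adjusted p = 0.120) and -0.46 ± 0.14 with PI3Kdi (adjusted p = 0.189). Idh2, its mitochondrial counterpart, was at 8.69, 9.25 and 9.50 FPKM in the WT libraries (8.89, 10.9 and 8.65 with PI3Kdi) and 7.98, 9.33 and 9.46 in the FOXO1-GFP KO libraries (9.56, 10.97 and 10.1 with PI3Kdi). The genotypes overlapped for Idh2.

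Enzymes at the entry and the core of the cycle differed little between genotypes. Pdha1 (pyruvate dehydrogenase E1 alpha) was at 46.0, 44.0 and 39.8 FPKM in the WT libraries (42.0, 40.2 and 37.0 with PI3Kdi) and 43.4, 46.5 and 37.1 in the FOXO1-GFP KO libraries (42.6, 41.4 and 33.5 with PI3Kdi). Cs (citrate synthase) was at 70.6, 70.7 and 68.5 FPKM in the WT libraries (67.5, 65.8 and 64.1 with PI3Kdi) and 73.4, 75.8 and 65.5 in the FOXO1-GFP KO libraries (69.4, 70.7 and 57.9 with PI3Kdi). For Cs the 95% interval of the genotype difference with PI3Kdi was -0.21 to 0.21 on the log2 scale. Within WT, all Cs libraries with PI3Kdi lay below those without it, as for 5.81% of all genes. Idh3a (a subunit of the NAD-dependent isocitrate dehydrogenase) was at 27.2, 31.7 and 30.5 FPKM in the WT libraries (25.5, 29.0 and 26.1 with PI3Kdi) and 31.2, 32.0 and 30.8 in the FOXO1-GFP KO libraries (32.8, 29.5 and 24.7 with PI3Kdi). Ogdh (2-oxoglutarate dehydrogenase E1) was at 39.8, 31.1 and 29.0 FPKM in the WT libraries (40.3, 31.0 and 32.0 with PI3Kdi) and 36.2, 36.2 and 28.5 in the FOXO1-GFP KO libraries (32.9, 31.2 and 26.2 with PI3Kdi). Groups overlapped between genotypes for all 4 genes. Idh3g, another subunit of that dehydrogenase, was the TCA member with all FOXO1-GFP KO libraries above WT under PI3Kdi, at 43.7 to 44.1 against 34.2 to 42.0 FPKM (log2 fold change 0.18 ± 0.11 SE, limma adjusted p = 0.660).

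**Figure D3:**
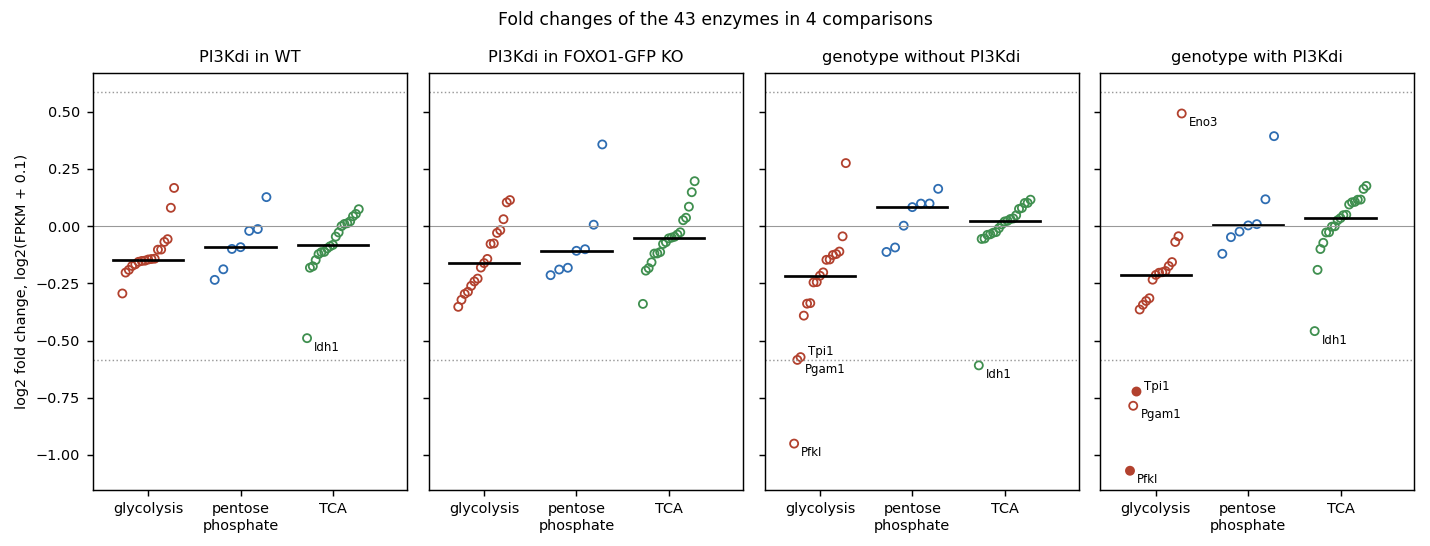
Log2 fold change of each of the 43 enzymes (y axis) by pathway (x axis) in 4 comparisons, with filled points for called members, black bars for pathway medians and dotted lines at a 1.5-fold change. Filled points appear only in the genotype comparison with PI3Kdi, where they are Pfkl (-1.07) and Tpi1 (-0.72).

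The second question was how p110δ inhibition for 24 h affected the same mRNA. No member passed the call in either genotype: limma called 0 of 43 in WT and 0 of 43 in FOXO1-GFP KO. Of all genes 0.0979% and 0.0452% were called. In each genotype 1 member, Idh1, had an unadjusted p under 0.05 in limma, as did 683 and 687 of all 13283 genes. Voom on estimated reads also called 0 members in each. With the replicate block the called members stayed at 0 while 2.57% and 2.79% of all genes were called. Most values were small and negative. In WT 34 of 43 and in FOXO1-GFP KO 33 of 43 log2 fold changes were negative, against 60% and 53.4% of all genes, and the medians in WT were -0.15 for glycolysis, -0.09 for the pentose phosphate pathway and -0.08 for the TCA group, against -0.04 for all genes. In FOXO1-GFP KO they were -0.16, -0.11 and -0.05, against -0.02. Rescaling by the median ratio left 4 of 7 pentose phosphate and 11 of 19 TCA members negative in WT, from 6 and 13.

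Without the demand for a 1.5-fold change, and with the block, the adjusted p was under 0.05 for 3 members in WT and for 8 in FOXO1-GFP KO, all lower with PI3Kdi, where 3.53% and 4.06% of all genes were lower by that rule. In WT these were Pfkp (log2 fold change -0.29, adjusted p = 0.0247), Rpe (-0.24, 0.0451) and Idh1 (-0.49, 0.00538), from limma with the block. In FOXO1-GFP KO they were Pfkl, Tpi1, Pgam1, Pkm and Ldha of glycolysis, G6pdx and Rpia of the pentose phosphate pathway, and Idh1. Their log2 fold changes ranged from -0.18 for G6pdx to -0.35 for Pgam1, and the smallest adjusted p was 0.0226, for Tpi1. Paired values showed the direction: 7 of 17 glycolytic members (Pfkl, Pfkp, Tpi1, Gapdh, Pgk1, Pgam1 and Ldha), 4 of 7 pentose phosphate members (G6pdx, Pgd, Rpia and Rpe) and 5 of 19 TCA members (Pdha1, Cs, Aco1, Idh1 and Sucla2) were lower with PI3Kdi in all 6 pairs, against 14% of all genes. Pgls was higher in all 6 pairs, against 9.2% of all genes.

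The response to PI3Kdi was not found to differ between genotypes for any member. In limma 0 of 43 members were called for the difference of the responses, by adjusted p and fold change, with or without the block, where 0% and 0.0226% of all genes were called. No member had an unadjusted p under 0.05 for it without the block, and over all genes 200 did. The 95% interval of the log2 difference was widest for Hk2, at -1.18 to 0.98, and was -0.67 to 0.44 for Pfkl and -0.28 to 0.58 for Idh1. The interval was within a 1.5-fold change for 5 of 17 glycolytic, 6 of 7 pentose phosphate and 16 of 19 TCA members, against 31.9% of all genes.

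The median shares of the variation also differed between the pathways, a difference that was not tested. For each mRNA the sum of squares over the 12 libraries was divided among genotype, PI3Kdi, their interaction, replicate pairs within a genotype, and the rest. The median share of genotype was 31.7% in glycolysis, 5.64% in the pentose phosphate pathway and 2.87% in the TCA group, against 8.27% over 10371 genes whose mean reached 1 FPKM. It was highest for Pfkl (81.9%), Tpi1 (73.3%), Hk1 (65.0%), Pgam1 (60.7%) and Gpi1 (57.4%), and for Idh1 in the TCA group (56.0%). Gapdh, often used as a reference gene, had 1.35% with genotype. Replicate pairs held 39.6% of the variation in glycolysis, 59.8% in the pentose phosphate pathway and 70.6% in the TCA group, against 65.1% over all those genes, and 86.6% for Hk2. The shares of mitochondrially encoded mRNA (3.11 to 6.80% of FPKM) and of ribosomal protein mRNA (11.9 to 17.9%) also varied between pairs, being highest in FOXO1-GFP KO+PI3Kdi replicate 3, the library with the lowest glycolytic sum (3519 FPKM). Their part in these levels was not tested.

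**Figure D4:**
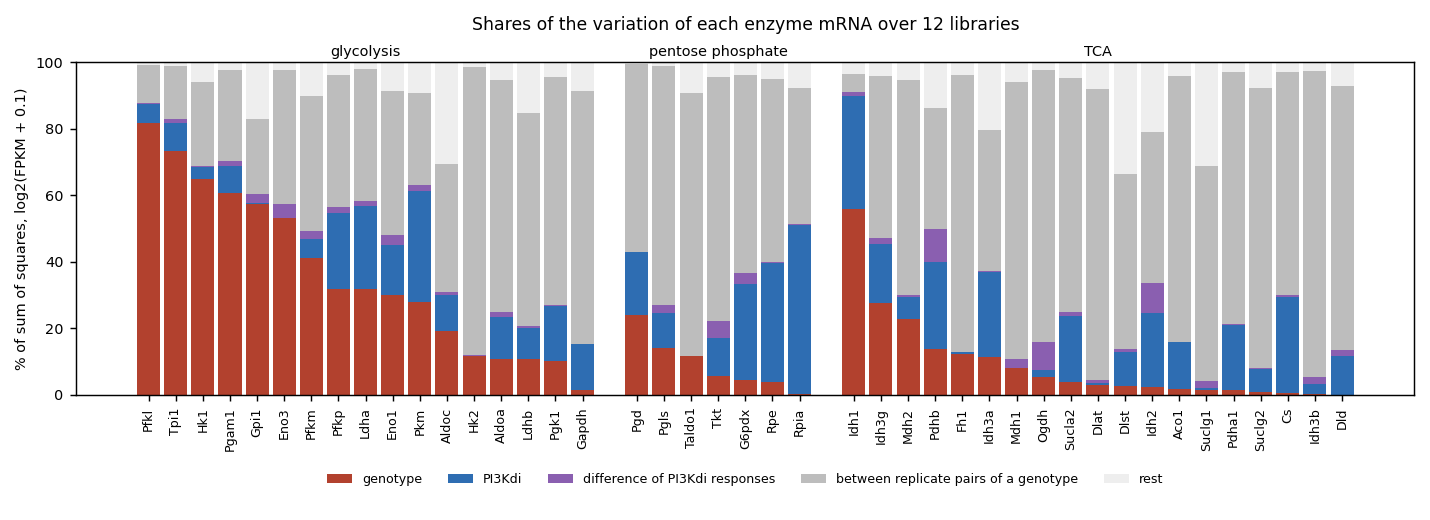
Shares of the sum of squares of log2(FPKM + 0.1) over 12 libraries (y axis, %) for each of the 43 enzymes (x axis, grouped by pathway and ordered by the share of genotype), stacked by source. Genotype reaches 81.9% for Pfkl, while grey bars for replicate pairs dominate the TCA group.

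**Figure D5:**
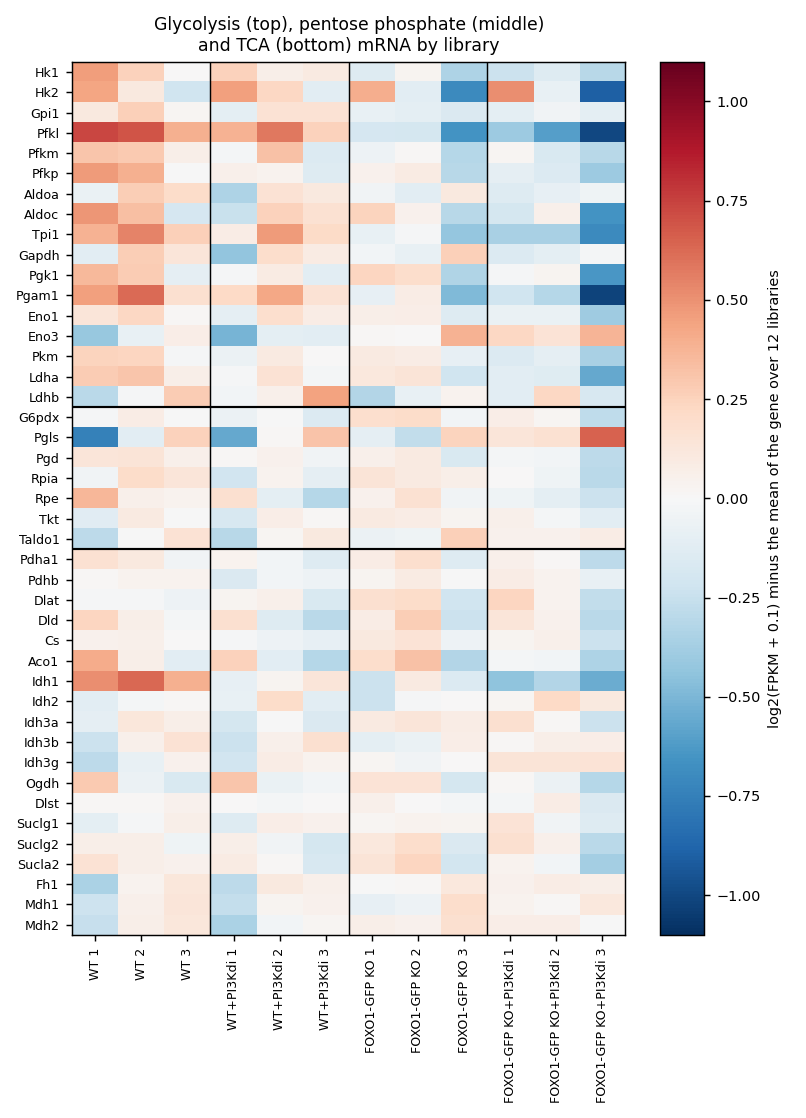
Log2(FPKM + 0.1) of each enzyme (rows, by pathway) in each library (columns, by group), as the difference from that gene's mean over 12 libraries, in colour. Pfkl, Tpi1 and Pgam1 are red in the WT columns and mostly blue in the FOXO1-GFP KO columns, and FOXO1-GFP KO+PI3Kdi replicate 3 is blue for many rows of each pathway.

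Genes around the pathways were counted from a separate list of transporters, regulators and other isoenzymes, of which 33 of 45 had a row. Between the genotypes 1 of 33 was called without PI3Kdi and 2 of 33 with it, against 0.331% and 1.45% of all genes, all lower in FOXO1-GFP KO. Slc16a3, which exports lactate from the cell, was at 44.4, 53.5 and 37.7 FPKM in the WT libraries (29.9, 45.9 and 32.2 with PI3Kdi) and 19.9, 18.7 and 13.1 in the FOXO1-GFP KO libraries (14.5, 13.04 and 9.17 with PI3Kdi). The genotypes did not overlap, while the groups with and without PI3Kdi overlapped within each genotype. The log2 fold changes between genotypes were -1.39 ± 0.23 without and -1.55 ± 0.23 with PI3Kdi (SE; limma adjusted p = 0.0261 and 0.00545). Pdk1, a kinase that inhibits pyruvate dehydrogenase, was at 13.01 to 17.1 FPKM in WT+PI3Kdi and 6.55 to 9.07 in FOXO1-GFP KO+PI3Kdi. Its log2 fold change was -0.94 ± 0.20 (SE; limma adjusted p = 0.0460). Pdk3, another such kinase, was at 14.62 to 20.97 FPKM in WT+PI3Kdi and 11.44 to 15.8 in FOXO1-GFP KO+PI3Kdi. These groups overlapped, and Pdk3 was not called.

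A list of hypoxia-inducible genes outside these pathways, of which 18 of 20 had a row, was compared because several glycolytic genes are known targets of hypoxia-inducible factors. All 18 had a negative log2 fold change of FOXO1-GFP KO against WT without PI3Kdi (median -0.65) and 15 with it (median -0.54), against 52.7% and 49% of all genes. Without PI3Kdi 5 of 18 were called (Bnip3, Egln3, P4ha2, Ak4 and Plod2), and with PI3Kdi 6 of 18, those and P4ha1, all lower in FOXO1-GFP KO, against 0.331% and 1.45% of all genes called. P4ha2, at 0.09 to 2.05 FPKM, was not called with the block (adjusted p = 0.188 and 0.109 in limma), which called P4ha1 in both. Plod2, a collagen lysyl hydroxylase, was at 12.6 to 17.9 FPKM in WT and 6.14 to 6.89 in FOXO1-GFP KO. Bnip3, a mitophagy receptor, was at 111 to 147 FPKM in WT and 61.3 to 70.3 in FOXO1-GFP KO. This list was drawn up with earlier results of these data known, and it is not independent evidence of its direction.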

How the data were processed

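RNA of sorted CTL (300 ng, TruSeq Stranded mRNA) was sequenced by the authors as paired reads, aligned to GRCm38.p6 with STAR 2.7.1a and counted over uniquely mapped reads per Ensembl gene. The authors kept expressed genes with edgeR, applied TMM scaling and deposited FPKM over summed exon length, to 2 decimals. Since unique reads were counted, levels of genes with near-identical copies (Gapdh, Aldoa, Pgk1, Eno1, Tpi1, Pgam1, Ldha) are uncertain.

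FPKM of 12 libraries were analysed as log2(FPKM + 0.1) with limma 3.58.1 in R 4.3.3, with 4 group means, an intensity trend and Benjamini-Hochberg adjustment over 13283 genes. Log2 fold changes on that scale understate the change of low mRNA. Intervals are 95% and per gene. All 43 members could be named. Values in every library were given for members called in any comparison, for a set of rate-limiting and entry enzymes, and for the highest and lowest mRNA of each pathway. Members and lists were chosen with earlier results of these data known. The labels call the samples biological replicates but do not tie them to mice, so p-values measure the spread between these samples. Library pairs within a group differed by 13.2 to 135 times counting noise, more than the same library deposited again would. Libraries of the same replicate number deviated together within a genotype (correlation 0.594 to 0.838) but not reliably between genotypes (-0.409 to 0.730), so the block joined libraries within a genotype, with a consensus correlation of 0.757. Reads per library were estimated from the spacing of low FPKM. Promoter windows and gene positions came from RefSeq and an annotation of the same build. Some items are not reported here.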

Additional observations from a re-analysis of the deposited data

How the results depend on the processing

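Members called were recounted under other pseudocounts, a filter on low values, rescaled libraries, voom on estimated reads, a fit of the compared groups alone, a replicate block within genotype, and with libraries left out. Fits of both libraries of a pair left out, and voom, rescaling or adjusted p alone with the block, were chosen after seeing the data. For genotype without PI3Kdi the count rose from 0 to 1 (Pfkl) with the replicate block, with voom with or without the block, with median-ratio rescaling and the block, and with adjusted p alone and the block, and ranged from 0 to 1 with libraries left out. For genotype with PI3Kdi it went from 2 to 1 (Pfkl) in the fit of the compared groups alone and on rescaling to the same FPKM sum, and ranged from 0 to 2 with libraries left out. It was 0 without WT+PI3Kdi replicate 2, without both libraries of WT replicate 2 (also with the block) and without both of FOXO1-GFP KO replicate 2. For PI3Kdi in WT it ranged from 0 to 1 (Idh1) with libraries left out, the 1 arising with the block and without WT replicate 3 or WT+PI3Kdi replicate 3 or both. Adjusted p alone with the block gave 3 for PI3Kdi in WT and 8 for PI3Kdi in FOXO1-GFP KO. With all libraries kept and the same thresholds, the replicate block changed no other call of a member. With 1 library left out, the block raised the settings that called a genotype difference with PI3Kdi from 11 to 12 of 12 for Pfkl, from 1 to 5 for Tpi1 and from 0 to 1 for Pgam1 (without FOXO1-GFP KO+PI3Kdi replicate 1, limma adjusted p = 0.0471). Causes were not tested. The genotype difference of Pfkl with PI3Kdi was called in 11 of 11 alternatives that kept all libraries (limma adjusted p 0.00292 to 0.0399) and in 11 of 12 with 1 library left out. That of Tpi1 was called in 9 of 11 and 1 of 12. Of the pathway medians, 529 alternative values moved by less than the replicate spread and 2 by more. That spread was an SD of 0.144 for glycolysis, 0.096 for the pentose phosphate pathway and 0.088 for the TCA group. Several medians were smaller than it, so a median counted as unmoved could still vanish or change sign. The TCA median for PI3Kdi in FOXO1-GFP KO ranged from -0.1595 to 0.0159 with 1 library left out (lowest without FOXO1-GFP KO+PI3Kdi replicate 1). The pentose phosphate median for genotype without PI3Kdi ranged from -0.0234 (without WT replicate 1) to 0.1183 (without WT replicate 2). These are the medians of the 2 larger moves. No direction of a called value reversed. Groups of 3 libraries and 29 reads at the lowest, for Ldhb, limit the precision.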
